A study of Mus musculus with 8 samples.

Results

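CD45+ cells of mammary tumors grown from the resistant line E0771-Res2 were set against those of tumors grown from the parental line E0771. The comparison held 3 E0771-Res2 mice and 2 parental mice, 5 of the 8 mice analysed here, and 7044 of the 10605 cells that met the filter of 500 to 6000 detected genes and under 10% mitochondrial UMIs (unique molecular identifiers, 1 per captured RNA molecule). E0771 is a carcinoma line of the mouse mammary gland. E0771-Res2 is a single line derived from a tumor that had come back after repeated cycles of paclitaxel and anti-PD-1, so it stands for 1 relapse. Both lines were implanted in an inguinal mammary fat pad of female mice, and CD45+ cells were sorted on day 18. No treatment is given in the sources used here for these 5 mice. Droplet libraries read the 3′ ends of RNA.

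Each mouse was 1 sample. UMIs were summed per mouse over all kept cells, over a lymphoid gate of cells with at least 2 UMIs of Cd3d, Cd3e, Cd3g and Ncr1 together, and over the remaining cells. The gate held 180 and 68 cells of the parental mice and 174, 198 and 177 cells of the E0771-Res2 mice, 797 in all. The remaining 6247 cells were split into 942 and 537 cells against 1668, 1316 and 1784 cells. Values below are given in the order parental 1, parental 3, then E0771-Res2 1, 2 and 3. A level is in CPM, the usual per-library scale of counts, after edgeR's TMM scaling of the summed libraries. Sums over marker lists are in CPM of the library total, without TMM scaling. A log2 fold change is E0771-Res2 over parental with its standard error, and each adjusted p comes from edgeR's quasi-likelihood test with Benjamini-Hochberg adjustment over all genes tested in that sum. A gene was called at an adjusted p under 0.05, and the words rose and fell are kept for called genes.

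The summed libraries held 4993722 to 14105279 UMIs, and no cell barcode was shared between mice. Cells of the E0771-Res2 tumors were shallower, with medians of 7001, 5677.5 and 5589 UMIs per cell against 8112 and 8058 (exact permutation test, two-sided, p = 0.2; 0.48 after adjustment over 12 measures; with 10 splits of 5 mice no p under 0.1 is possible). The 6 pan-leukocyte markers summed to 6604 and 6669 CPM in parental and 5975, 6399 and 6116 CPM in E0771-Res2 tumors, with none at 0, so the sorted type was present in every library. Tumor epithelial markers were low, at 9.12 and 11.6 CPM against 15, 16.7 and 15 CPM for 11 markers together. Of the 11, 4 to 7 had no UMI in a given mouse. The sum was higher in every E0771-Res2 mouse, and 1 of the 4 tested, Krt8, was called higher (3.73% of all genes tested). Fibroblast markers summed to 2.53 and 1.00 CPM against 4.68, 12.8 and 3.76 CPM (10 markers), higher in every E0771-Res2 mouse, and 0 of the 3 tested were called. Erythroid markers stood at 32.5 CPM in parental 1 and at 4.41 to 6.38 CPM in the other 4 mice.

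Macrophages that have taken up lipid and cell debris carry the receptor Trem2, lipid-handling proteins and lysosomal proteases, and are often called lipid-associated macrophages. Monocytes, which enter tumors from blood, carry Ly6c2 and Ccr2 and respond to interferon-gamma by making MHC class II, guanylate-binding proteins and the T cell-attracting chemokine Cxcl9. T cells and NK cells are the main sources of interferon-gamma, and CD8 T cells recognise peptide shown on MHC class I.

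A set of 3 short motifs, the third being the gamma-activated site given below, was searched in the promoters of genes called in the remaining cells. The interferon-stimulated response element (GAAA, any 2 bases, GAAA, searched on both strands) is bound by STAT and IRF proteins, and the E-box CACGTG is bound by, among others, the lysosomal regulators of the MiT family. The 250 bases before the RefSeq start (GRCm38.p6) are shown for 3 guanylate-binding protein genes that fell and for Ctsd, a lysosomal protease gene that rose. All were picked from called genes that hold a motif, so a match in each was fixed by the choice. Capitals mark motif matches. In Gbp5 they also mark 2 matches to the gamma-activated site TTC, any 3 bases, GAA, and in Gbp3 they cover 2 overlapping matches to the response element.
Gbp2 (chr3:142620413-142620662, plus strand): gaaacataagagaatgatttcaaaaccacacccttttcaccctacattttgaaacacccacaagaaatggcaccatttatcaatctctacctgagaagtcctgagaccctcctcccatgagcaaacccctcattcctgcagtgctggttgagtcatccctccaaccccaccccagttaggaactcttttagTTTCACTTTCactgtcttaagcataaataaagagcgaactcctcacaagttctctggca
Gbp3 (chr3:142559794-142560043, plus strand): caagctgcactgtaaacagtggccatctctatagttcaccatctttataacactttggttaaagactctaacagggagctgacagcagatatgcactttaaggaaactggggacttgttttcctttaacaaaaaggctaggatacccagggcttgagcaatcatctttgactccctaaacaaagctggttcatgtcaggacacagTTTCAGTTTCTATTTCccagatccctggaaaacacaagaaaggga
Gbp5 (chr3:142496684-142496933, plus strand): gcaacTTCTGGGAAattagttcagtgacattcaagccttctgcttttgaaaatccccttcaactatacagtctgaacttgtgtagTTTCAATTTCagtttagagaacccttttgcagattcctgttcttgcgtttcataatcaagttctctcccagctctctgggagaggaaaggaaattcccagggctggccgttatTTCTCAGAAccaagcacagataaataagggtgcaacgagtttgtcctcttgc
Ctsd (chr7:142387828-142388077, minus strand): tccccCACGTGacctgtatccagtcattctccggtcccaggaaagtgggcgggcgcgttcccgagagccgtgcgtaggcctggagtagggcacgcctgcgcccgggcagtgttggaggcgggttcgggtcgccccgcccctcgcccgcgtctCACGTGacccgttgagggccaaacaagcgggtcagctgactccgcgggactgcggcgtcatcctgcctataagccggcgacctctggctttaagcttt

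The response element was in 3.04% of 27025 mouse promoters of this length. It was in 56 of 693 genes called lower in the remaining cells that had a promoter sequence, or 8.08%, and in 10 of 375 called higher, or 2.67%. Of the 22 interferon-stimulated and MHC class I genes called lower, 15 had a promoter sequence and 7 of these held the element, namely Gbp2, Gbp3, Gbp5, Irgm1, Ifi205, Isg15 and Oas1a. The E-box was in 6.05% of all promoters, in 10.7% of genes called higher and in 7.5% of genes called lower. It was in 2 of the 16 lipid-associated and lysosome genes called higher with a promoter sequence, Ctsd and Ctsl. The windows of Ctsl and Gbp5, and most of that of Ctsd, lie inside the gene span of the mm10 annotation. That annotation has a start further upstream for these genes. The gamma-activated site was in 7.18% of all promoters, 6.93% of genes called higher and 7.94% of genes called lower. The shares over all promoters include genes that were not tested in these cells. All counts are matches of letters and not measured binding.

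In the remaining cells, 14 of 18 lipid-associated macrophage genes rose, and 8 of 13 MHC class II, 7 of 14 MHC class I, 15 of 27 interferon-stimulated and 6 of 18 monocyte genes fell. edgeR tested 11212 genes and called 1399 (12.5%), of which 504 (4.5%) were higher and 895 (7.98%) were lower in E0771-Res2 tumors. Without parental 1 it called 610, without parental 3 it called 455 and without E0771-Res2 3 it called 747. In sums over many cells, more cells of a type and more RNA per cell cannot be told apart.

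Ctsk, a collagen-degrading lysosomal protease (3:95499256-95509362 in mm10, plus strand), stood at 23.3 and 26.3 CPM in parental tumors and at 134, 93.4 and 121 CPM in E0771-Res2 tumors. It rose by 2.25 ± 0.17 on the log2 scale (edgeR adjusted p = 6.12e-05). The lowest E0771-Res2 mouse was well above the higher parental mouse. Gpnmb, a membrane glycoprotein of lipid-laden macrophages (6:49036546-49070929, plus strand), stood at 102 and 102 CPM against 514, 364 and 476 CPM, that is 102 ± 0.277 (SD, n = 2) against 451 ± 77.6 (SD, n = 3). It rose by 2.14 ± 0.15 (edgeR adjusted p = 6.12e-05). Mmp12, the macrophage elastase (9:7344381-7369499, plus strand), stood at 61.0 and 45.8 CPM against 209, 193 and 167 CPM and rose by 1.81 ± 0.13 (edgeR adjusted p = 6.00e-06). Trem2, the lipid-sensing receptor that names these macrophages (17:48346401-48354147, plus strand), stood at 92.4 and 79.4 CPM against 226, 159 and 185 CPM and rose by 1.14 ± 0.16 (edgeR adjusted p = 0.00317). None of these 4 genes overlapped between the groups.

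Genes that bind or release lipid moved the same way. Fabp4, a fatty acid-binding protein, stood at 25.1 and 34.7 CPM against 88.6, 88.7 and 77.6 CPM and rose by 1.55 ± 0.13 (edgeR adjusted p = 1.76e-06). Lpl, the lipase that frees fatty acids from lipoproteins, stood at 124 and 122 CPM against 390.0, 267 and 318 CPM and rose by 1.41 ± 0.16 (edgeR adjusted p = 0.00175). Cd36, a scavenger receptor for oxidised lipid, stood at 20.8 and 20.7 CPM against 48.2, 40.8 and 38.8 CPM (log2 fold change 1.04, edgeR adjusted p = 2.05e-05). In each of the 3 the 2 parental mice were below every E0771-Res2 mouse. Of the 18 lipid-associated macrophage genes tested, 14 rose and 0 fell (4.5% of all genes tested were called higher), 16 did not overlap between groups against 44.7% of all genes tested, and the median log2 fold change was 0.96 against 0.02 over all genes. The other called members were Syngr1, Atp6v0d2, Fabp5, Apoe, Cd63, Cd9 and Plin2. Spp1 (osteopontin), a member of this list named after its values were seen, stood at 234 and 259 CPM against 220.4, 386 and 165 CPM and did not pass (edgeR adjusted p = 0.959). Lgals3, Lipa and Itgax were the other members that did not pass.

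The share of remaining cells with a UMI moved with the sums. After each cell was thinned to 2500 UMIs, so that depth was equal, Gpnmb was seen in 11.8% and 14.1% of cells of the parental mice and in 41.7%, 31.1% and 40.8% of those of the E0771-Res2 mice. Without thinning these shares were 22.2% and 25.9% against 53.4%, 40.4% and 50.2%. Lymphoid cells without myeloid RNA are here those with under 20 UMIs of Lyz2, C1qa, C1qb and C1qc together, so some such RNA remained. After thinning, Gpnmb was seen in 7.92% and 2.5% against 14.3%, 9.28% and 22.6% of these lymphoid cells. The shares outside the gate were higher in every mouse. Ctsk was seen in 3.63% and 3.37% against 20.4%, 12.3% and 18.8% of thinned remaining cells, with 0 to 6.49% in those lymphoid cells, and Trem2 in 14.0% and 13.3% against 27.8%, 22.9% and 25.7%, with 2.60% to 9.28%. Thinning left out the cells under 2500 UMIs, which were 9.24% and 11.5% of parental and 11.5%, 13.2% and 17.5% of E0771-Res2 remaining cells.

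**Figure D1:**
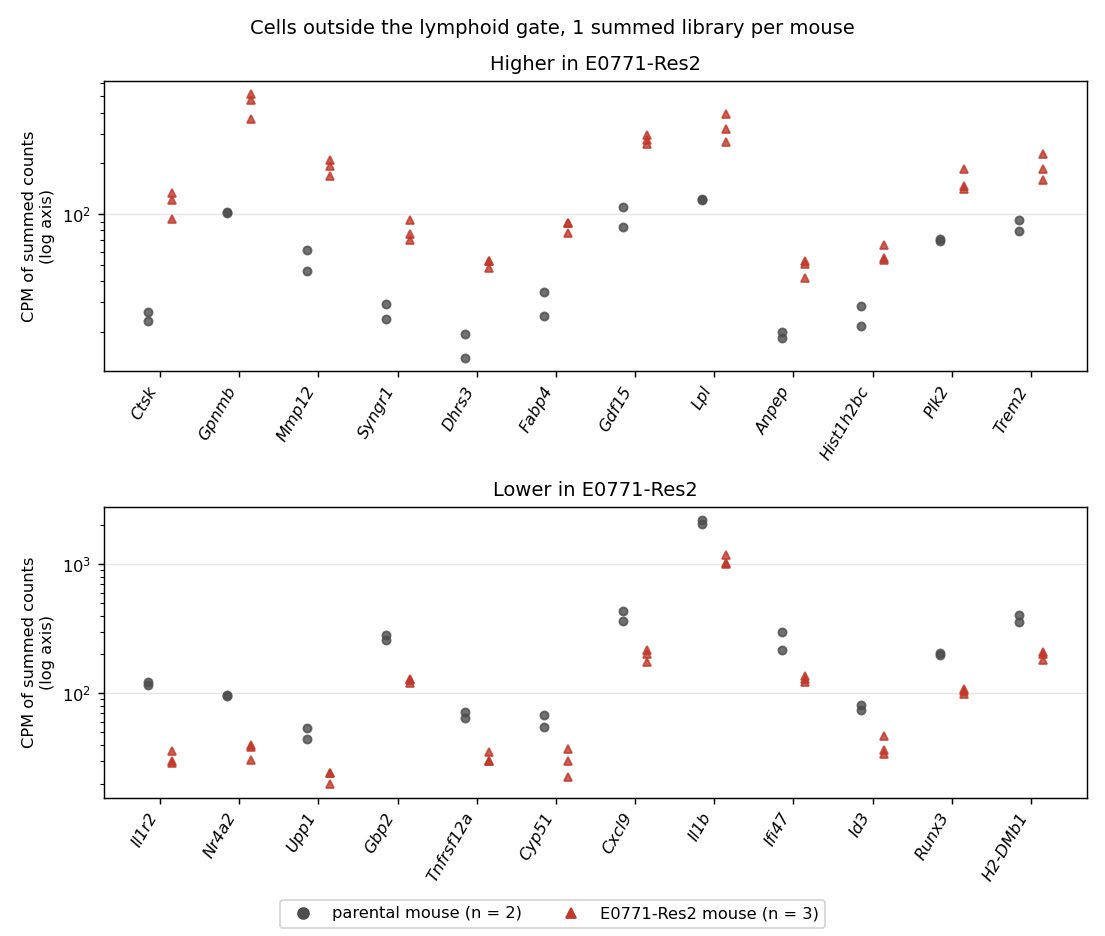
Levels (CPM, log axis) of the 12 genes with the largest rise and the 12 with the largest fall in cells outside the lymphoid gate, 1 point per mouse, for 2 parental (circles) and 3 E0771-Res2 mice (triangles). The groups do not overlap for any gene, since the choice of genes required it. Ctsk runs from 23.3 to 26.3 CPM in parental and from 93.4 to 134 CPM in E0771-Res2 mice.

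Other strong rises were outside lipid handling. Gdf15, a stress-induced cytokine, stood at 109.7 and 84.2 CPM against 261, 276 and 296 CPM and rose by 1.5 ± 0.11 (edgeR adjusted p = 3.62e-07). Dhrs3, which reduces retinaldehyde, stood at 19.5 and 14.0 CPM against 52.6, 47.7 and 52.8 CPM and rose by 1.56 ± 0.13 (edgeR adjusted p = 3.62e-07). Both were raised by a like amount in all 3 E0771-Res2 mice. Anpep, the aminopeptidase CD13, stood at 20.0 and 18.3 CPM against 52.7, 41.9 and 50.6 CPM (log2 fold change 1.33). Plk2, a stress-responsive kinase, stood at 69.2 and 70.9 CPM against 147, 141 and 185 CPM (1.17). Hist1h2bc, a histone gene whose near-identical copies may share reads, stood at 28.4 and 21.7 CPM against 55.3, 53.3 and 66.0 CPM (1.18). All 3 passed (edgeR adjusted p = 2.60e-06, 1.74e-05 and 2.15e-05).

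Among genes of C1q-positive and tissue macrophages most calls were rises. Of 15 tested, 6 rose and 1 fell (4.5% and 7.98% of all genes tested), 8 were not called, and the median log2 fold change was 0.50. Maf, a transcription factor of tissue macrophages, stood at 221 and 209 CPM against 326, 303 and 317 CPM (0.55, edgeR adjusted p = 0.000106). Stab1, a scavenger receptor, stood at 17.8 and 14.5 CPM against 28.2, 30.7 and 27.3 CPM (0.80, adjusted p = 0.000499 by edgeR). Folr2, a folate receptor of resident macrophages, stood at 14.0 and 9.65 CPM against 24.8, 25.8 and 18.8 CPM (0.92, edgeR adjusted p = 0.00380), and Gas6, a bridge to dying cells, stood at 4.78 and 3.86 CPM against 11.4, 10.8 and 8.46 CPM (1.21, edgeR adjusted p = 0.00126). These 4 were higher in each E0771-Res2 mouse. The member that fell was Csf1r, the receptor for macrophage growth factor, named after its values were seen, at 261 and 269 CPM against 223, 212 and 214 CPM (log2 fold change -0.29, edgeR adjusted p = 0.0145).

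Lysosome genes moved in both directions, with 7 higher and 3 lower of 26 (4.5% and 7.98% of all genes tested) and a median of 0.16. Of the 26, 16 did not overlap between groups (44.7% of all genes tested). Ctsd, the aspartic protease whose promoter is shown above, stood at 527 and 543 CPM against 1001, 799 and 889 CPM and rose by 0.74 ± 0.09 (edgeR adjusted p = 2.77e-05). Ctsb, a cysteine protease, stood at 2534 and 2637 CPM against 4159, 3176 and 3720.5 CPM (0.51, edgeR adjusted p = 0.00359). Both were lowest in the 2 parental mice. Ctsc, which activates the granule proteases of leukocytes, went the other way, at 1033 and 1006 CPM against 730.2, 641 and 604 CPM (log2 fold change -0.63, edgeR adjusted p = 3.88e-05). Asah1 and Lamp2 were the other members that fell, named after their values were seen.

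Of 20 matrix and protease genes, 5 rose and 3 fell (4.5% and 7.98% of all genes tested). Besides Mmp12, Timp2, an inhibitor of metalloproteases, rose from 117 and 123 CPM to 218, 173 and 195 CPM (log2 fold change 0.71, edgeR adjusted p = 9.04e-05). Plaur, the urokinase receptor, fell from 285 and 281 CPM to 180.1, 189.6 and 158 CPM (-0.69, adjusted p = 2.31e-05 by edgeR). Tgfbi, a matrix adaptor protein made by monocytes, fell from 1197 and 1242 CPM to 839, 763 and 747 CPM (-0.64, edgeR adjusted p = 1.21e-05). Other called members were Mmp13 and Mmp14, which rose, and Mmp19, which fell.

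Monocyte genes fell where they passed the test, 6 of 18 (7.98% of all genes tested), with 0 higher and a median of -0.53. Ly6c2, the surface marker of inflammatory monocytes, stood at 2581 and 2689.5 CPM against 1741, 1583 and 1603 CPM and fell by 0.68 ± 0.07 on the log2 scale (edgeR adjusted p = 4.42e-06). Ccr2, the receptor that brings monocytes out of bone marrow, stood at 396 and 375 CPM against 192, 258 and 175 CPM (-0.89, edgeR adjusted p = 0.0259). For both the highest E0771-Res2 mouse was below the lower parental mouse, and E0771-Res2 2 was the nearest for Ccr2. Neutrophil markers in the same cells overlapped between groups, at 92.6 and 128 CPM against 102, 204 and 129 CPM for 10 markers.

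Genes of MHC class II presentation fell in 8 of 13 members (7.98% of all genes tested), with 0 higher and a median of -0.70. Cd74, the invariant chain, stood at 7358 and 6941 CPM against 3726, 3785 and 3938 CPM and fell by 0.91 ± 0.07 (edgeR adjusted p = 1.86e-07). H2-Ab1, the beta chain of I-A, stood at 3310.0 and 3023 CPM against 1599, 1808 and 1843 CPM (-0.86, edgeR adjusted p = 1.03e-06), and H2-Aa, the alpha chain, stood at 3149 and 2894 CPM against 1598, 1827 and 1885 CPM (-0.77, edgeR adjusted p = 4.42e-06). H2-DMb1, part of the peptide-loading molecule H2-M (17:34153072-34160230, plus strand), stood at 403 and 357 CPM against 200.2, 209 and 181 CPM and fell by 0.95 ± 0.08 (edgeR adjusted p = 7.98e-07). In each of these genes the E0771-Res2 mice lay close together and clear of the parental mice. The other called members were Ciita, H2-Eb1, H2-DMa and Ifi30.

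Dendritic cells also carry these genes, and their markers were read in the same sums. Type 1 dendritic cell markers summed to 361 and 336 CPM against 300.0, 348 and 322 CPM (7 markers), type 2 markers to 759 and 833 CPM against 755, 770.97 and 744 CPM (8 markers), and mature dendritic cell markers to 318 and 239.7 CPM against 214, 329 and 334 CPM (10 markers, with Lamp3 at 0 in every mouse). All 3 sums overlapped between the groups. Of the 8 type 2 markers, 5 did not overlap (44.7% of all genes tested) and the median log2 fold change was -0.51. Cd1d1 and Napsa fell by 0.81 and 0.36 and Sirpa rose by 0.29 on the log2 scale (edgeR adjusted p = 0.0367, 0.0150 and 0.0287). Plasmacytoid dendritic cell markers were higher in every E0771-Res2 mouse, at 1247 and 1294 CPM against 1502, 1390.0 and 1598 CPM, with 0 of 6 called. The 6 include Bst2, which is also on the list of interferon-stimulated genes, so this sum does not measure that cell type alone. B and plasma cell marker sums overlapped, at 89.4 and 73.5 CPM against 79.2, 82.4 and 92.9 CPM. Pan-leukocyte markers were lower in every E0771-Res2 mouse, at 6653 and 6640 CPM against 5891, 6309 and 6072 CPM, with Ptprc, Coro1a and Cd53 called lower by 0.25 to 0.30 on the log2 scale. Tumor epithelial markers were higher in every E0771-Res2 mouse, at 9.96 and 11.4 CPM against 13.6, 17.0 and 15.1 CPM, with 0 of 3 tested called. The part of these markers in the class II and other results was not tested.

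Of 14 MHC class I presentation genes, 7 fell and 0 rose (7.98% and 4.5% of all genes tested), and the median was -0.34. The transporter subunit Tap1 stood at 246 and 262 CPM against 167, 170.1 and 176 CPM (-0.57, edgeR adjusted p = 5.93e-05), and Tapbp, its link to class I, stood at 304 and 304 CPM against 238, 215 and 233 CPM (-0.41, edgeR adjusted p = 0.00132). The immunoproteasome subunit Psmb10 stood at 344 and 342 CPM against 251, 251 and 246 CPM (-0.46, edgeR adjusted p = 0.000307), and Psmb8 stood at 961 and 946 CPM against 749, 753 and 748 CPM (-0.35, edgeR adjusted p = 0.00213). Tap2, Tapbpl and Psmb9 were the other members that fell. Of the 7 that did not pass, 3 are chains of class I molecules, named after their values were seen: H2-K1 differed by -0.03 (edgeR adjusted p = 0.868), H2-D1 by -0.12 (edgeR adjusted p = 0.368) and B2m by 0.21 (edgeR adjusted p = 0.0703) on the log2 scale.

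Interferon-stimulated genes fell in 15 of 27 members (7.98% of all genes tested), with 0 higher and a median of -0.41. Of the 27, 21 did not overlap between groups (44.7% of all genes tested). Gbp2, a guanylate-binding protein of cell-autonomous immunity (3:142620602-142638008, plus strand), stood at 283 and 259 CPM against 128, 126 and 120.4 CPM and fell by 1.12 ± 0.08 (edgeR adjusted p = 9.30e-08). Its neighbours on chromosome 3 also fell, with Gbp3 at 92.7 and 92.9 CPM against 55.3, 54.7 and 57.0 CPM (-0.74, edgeR adjusted p = 1.21e-05) and Gbp5 at 85.8 and 89.3 CPM against 45.9, 55.7 and 47.5 CPM (-0.82, edgeR adjusted p = 1.59e-05). Members of this family are alike in sequence, so reads may be split between them. Cxcl9, which draws CXCR3+ T cells, stood at 431 and 364 CPM against 203, 216 and 175 CPM and fell by 1.01 ± 0.10 (edgeR adjusted p = 6.98e-06). Ifi47, an immunity-related GTPase, stood at 218 and 296 CPM against 128, 137 and 123 CPM (-0.99, edgeR adjusted p = 0.000141). In thinned cells Gbp2 was seen in 33.9% and 32.4% against 19.4%, 17.4% and 20.5% of remaining cells, and in 2.5% to 12.9% of lymphoid cells without myeloid RNA.

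Inflammatory cytokine genes were split, with 9 lower and 3 higher of 22 (7.98% and 4.5% of all genes tested). Il1b, the gene of interleukin-1 beta (2:129364570-129371139, minus strand), stood at 2053 and 2175 CPM against 1165, 1021 and 1001 CPM and fell by 0.99 ± 0.08 (edgeR adjusted p = 2.62e-07). Nlrp3, the inflammasome sensor, stood at 126 and 135 CPM against 75.0, 61.3 and 75.9 CPM (-0.88, edgeR adjusted p = 9.19e-06). Cd40, the receptor for T cell help, stood at 123 and 132 CPM against 84.6, 86.0 and 91.3 CPM (-0.54, edgeR adjusted p = 0.000218). The 3 that rose were chemokine genes. Ccl3 stood at 450.4 and 390.3 CPM against 583, 645 and 598 CPM (0.53, edgeR adjusted p = 0.000228) and Ccl4 at 1409.9 and 1506 CPM against 1938, 1913 and 1898 CPM (edgeR adjusted p = 0.000840), while Ccl5 differed by 0.24 on the log2 scale (edgeR adjusted p = 0.0425). Il1b was seen in 78.7% and 78.7% of thinned remaining cells against 65.5%, 63.2% and 61.7%, and in 24.8% to 33.8% of lymphoid cells without myeloid RNA.

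**Figure D2:**
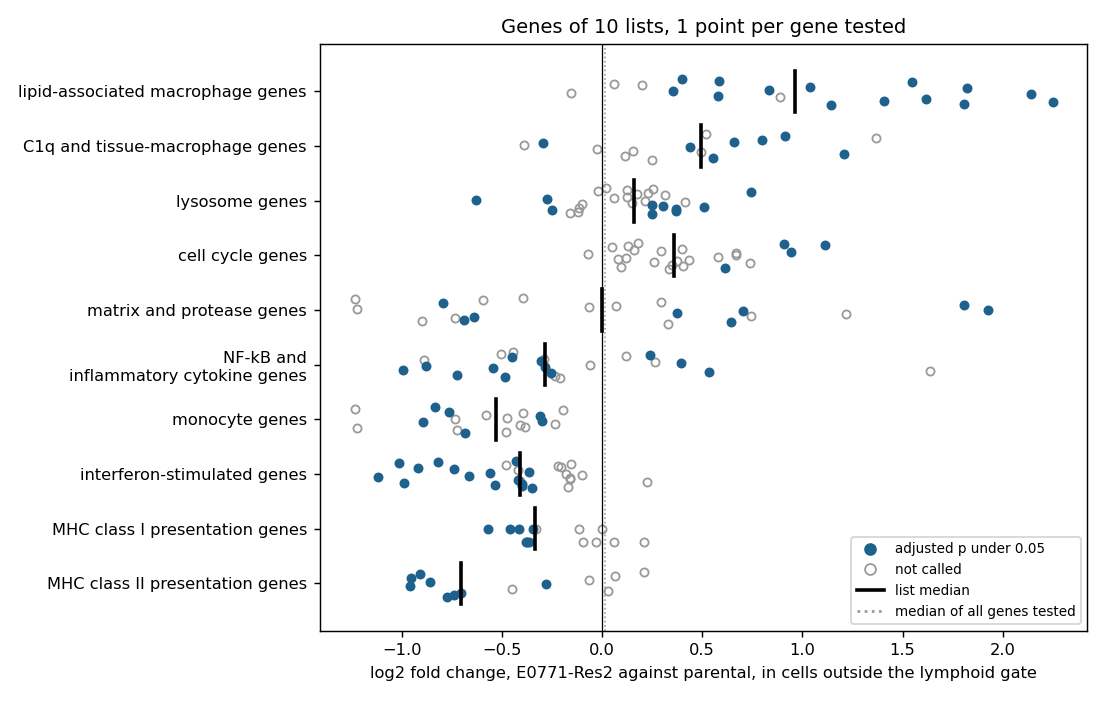
Log2 fold change (E0771-Res2 against parental, horizontal axis) of every tested gene of 10 lists in cells outside the lymphoid gate, with filled points for genes called by edgeR, a bar for each list's median and a dotted line for the median of all genes. The medians run from 0.96 for lipid-associated macrophage genes to -0.70 for MHC class II genes.

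Among the called genes of this abundance the largest fall was that of Il1r2, the decoy receptor for interleukin-1 (1:40074079-40125231, plus strand). It stood at 115 and 122 CPM against 29.1, 29.9 and 35.7 CPM and fell by 1.90 ± 0.10 (edgeR adjusted p = 9.25e-10). Nr4a2, an orphan nuclear receptor (2:57106830-57124003, minus strand), stood at 96.8 and 95.8 CPM against 30.5, 40.2 and 38.3 CPM and fell by 1.41 ± 0.11 (edgeR adjusted p = 3.48e-07). Runx3, a transcription factor of myeloid and T cells, stood at 199 and 205 CPM against 99.1, 104 and 107 CPM (-0.97, edgeR adjusted p = 3.53e-07). All 3 were at like levels in the mice of a group. Also among the 12 largest falls were the uridine phosphorylase Upp1 (-1.13), the TWEAK receptor Tnfrsf12a (-1.10), the differentiation inhibitor Id3 (-0.98) and the sterol enzyme Cyp51. Cyp51 stood at 54.5 and 68.5 CPM against 29.8, 36.9 and 22.4 CPM (-1.04 ± 0.22, edgeR adjusted p = 0.0355), and it was no longer called without parental 1, parental 3 or E0771-Res2 1.

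Metabolic lists moved less. Of 24 glycolysis and hypoxia genes 3 fell and 1 rose, with a median of -0.09. Of 27 nuclear genes of oxidative phosphorylation 5 fell and 0 rose, with a median of -0.10. Among all genes tested 7.98% were called lower and 4.5% higher, and the glycolysis and hypoxia counts were near these shares. In that list 11 genes did not overlap between groups, and 14 in the other (44.7% of all genes tested). Slc16a3, the lactate exporter, stood at 137 and 119.5 CPM against 95.2, 89.1 and 86.1 CPM (-0.51, edgeR adjusted p = 0.000569), and Mif, a cytokine gene induced in hypoxia, was the one that rose (0.34, edgeR adjusted p = 0.00736). Pfkp and Ndrg1 fell by 0.54 and 0.32. Of the oxidative phosphorylation genes, Uqcrfs1, Sdhd, Atp5a1 and Ndufb9 fell by 0.27 to 0.33. Ass1, an enzyme on the route from citrulline to arginine, stood at 208 and 215 CPM against 128, 118 and 124 CPM (-0.78, edgeR adjusted p = 3.63e-06). It fell with Arg2, 2 of 9 members of the list of arginine and tryptophan metabolism. Arg1, named after its values were seen, spread from 2.43 to 17.6 CPM in E0771-Res2 mice against 19.9 and 38.6 CPM and did not pass (edgeR adjusted p = 0.388).

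Of 24 cell cycle genes, 4 rose in the remaining cells (4.5% of all genes tested), and the median was 0.36. Cenpf, a mitotic protein, stood at 4.39 and 5.55 CPM against 7.61, 9.99 and 10.5 CPM (0.94, edgeR adjusted p = 0.0101). Tpx2, Cenpe and Ccnb1 rose by 0.62, 0.91 and 1.11 on the log2 scale (edgeR adjusted p = 0.0195, 0.0265 and 0.0439). Over all kept cells 0 of 24 passed and the median was -0.18, and in the lymphoid gate 0 of 24 passed and the median was -0.44. Immediate early and chaperone genes were split in the remaining cells, with 4 higher (Dusp1, Fos, Atf3 and Hsph1) and 3 lower (Ier2, Ier3 and Nr4a1) of 20. The shares over all genes tested there were 4.5% and 7.98%.

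Some genes best known from T cells were called in the remaining cells. Il7r, the interleukin-7 receptor, stood at 82.0 and 92.4 CPM against 213, 168 and 185 CPM (1.12, edgeR adjusted p = 4.42e-06). Cd4, which mouse macrophages can also carry, stood at 9.69 and 6.51 CPM against 27.1, 20.8 and 21.7 CPM (1.46, edgeR adjusted p = 4.63e-05). Each was higher in all 3 E0771-Res2 mice. Klrk1, an activating receptor of NK and CD8 T cells, stood at 101 and 102 CPM against 46.2, 64.0 and 67.4 CPM (-0.78, edgeR adjusted p = 0.0111). Cells with 1 UMI or none of the gate genes stayed outside the gate, so T and NK cells with little RNA were in this sum.

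Among all kept cells, edgeR called 1023 of 11788 genes (8.68%), with 440 higher (3.73%) and 583 lower (4.95%), and 918 of the 1023 were called in the remaining cells as well. Without parental 1 it called 373, without parental 3 it called 246, without E0771-Res2 2 it called 1608 and without E0771-Res2 3 it called 458. The following T cell genes were called in the whole sum and not in the remaining cells. Cd8b1, the CD8 beta chain, stood at 36.3 and 26.6 CPM against 8.36, 15.7 and 8.80 CPM and fell by 1.58 on the log2 scale (edgeR adjusted p = 0.0416). Trbc1, a T cell receptor beta constant gene with a near-identical copy, stood at 82.7 and 109 CPM against 49.5, 59.5 and 43.6 CPM (-0.90, edgeR adjusted p = 0.0135). Pdcd1, the gene of PD-1, stood at 17.3 and 12 CPM against 9.00, 11.5 and 8.15 CPM (-0.67, edgeR adjusted p = 0.0376). Pdcd1 lay close between parental 3 and E0771-Res2 2. Of 17 checkpoint and exhaustion genes 5 fell, with a median of -0.42 and 10 without overlap (42.2% of all genes tested). The others were Nr4a2, Cd160, Tox and Havcr2.

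The lymphoid gate took 16.0% and 11.2% of kept cells in parental tumors and 9.45%, 13.1% and 9.03% in E0771-Res2 tumors, a difference of -3.12 percentage points with overlap between groups (exact permutation test, two-sided, p = 0.3; 0.514 after adjustment over 12 measures). Within the gate the CD8 cells stood apart. Cells with a UMI of Cd8a or Cd8b1, no Foxp3 and at least 1 Cd3 UMI were 34.4% and 32.4% of lymphoid cells in parental tumors (62 and 22 cells) and 10.9%, 17.2% and 15.8% in E0771-Res2 tumors (19, 34 and 28 cells). The difference was -18.8 percentage points, with every E0771-Res2 mouse below both parental mice (exact permutation test, two-sided, p = 0.1, the smallest possible; 0.48 after adjustment). As a share of all kept cells they were 5.53% (95% exact interval 4.26 to 7.03) and 3.64% (2.29 to 5.45) against 1.03% (0.622 to 1.61), 2.25% (1.56 to 3.12) and 1.43% (0.951 to 2.06). These intervals cover counting error only.

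The CD8 shares of the lymphoid gate were 41.4% and 36.4% against 9.90%, 16.8% and 17.3% when cells were thinned to 2500 UMIs. Conventional CD4 cells, with a Cd4 UMI and neither Foxp3 nor CD8, were 9.44% and 11.8% of lymphoid cells against 18.4%, 12.6% and 14.7% (exact permutation test p = 0.2; 0.48 adjusted). Foxp3+ cells, the regulatory T cells, were 21.7% and 16.2% against 25.9%, 20.2% and 20.3% (p = 0.6 by the exact permutation test; 0.72 adjusted). NK cells, with Ncr1 or Klrb1c and no Cd3 UMI, were 7.78% and 11.8% against 8.62%, 11.6% and 6.21% (p = 0.7 by exact permutation). These Foxp3+ and NK shares overlapped between groups, and for NK cells the sign of the difference changed with the mouse left out. After thinning to 2500 UMIs the Foxp3+ shares did not overlap, at 11.2% and 6.82% against 19.8%, 14.2% and 14.3%. With the lymphoid gate at 3 UMIs they were 24.3% and 17.2% against 32.8%, 25.9% and 26.2%. The exact permutation test gave p = 0.1 for each, the smallest possible. Under the other settings run the Foxp3+ shares overlapped. A gate on the UMIs of 1 or a few genes misses cells in which none was captured.

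**Figure D3:**
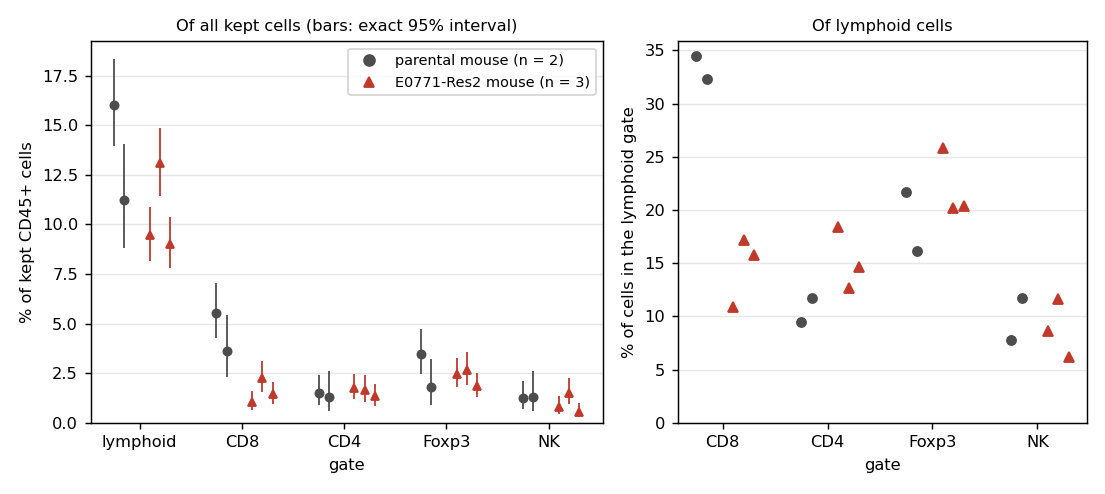
Left, share of kept CD45+ cells (%) in the lymphoid gate and its subsets, 1 point per mouse with an exact 95% interval. Right, share of lymphoid cells (%) in each subset, where the CD8 gate holds 34.4% and 32.4% in the 2 parental mice and 10.9% to 17.2% in the 3 E0771-Res2 mice.

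In the lymphoid sum edgeR called 103 of 9261 genes (1.11%), with 77 higher (0.831%) and 26 lower (0.281%). The number rested on both parental mice, since 4 genes were called without parental 1 and 3 without parental 3, where the lone parental mouse was assumed to vary like the others. It was 40 without E0771-Res2 1, 293 without E0771-Res2 2 and 40 without E0771-Res2 3. Of the 103, 57 were called in the remaining cells too, all 57 in the same direction. Macrophage genes were among the 12 largest rises.

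Lpl stood at 54.3 and 72.7 CPM against 219, 160.1 and 224 CPM in this sum and rose by 1.72 ± 0.18 (edgeR adjusted p = 0.000263). F7, coagulation factor VII, stood at 12.1 and 14.3 CPM against 51.2, 29.1 and 49.5 CPM and rose by 1.76 ± 0.29 (edgeR adjusted p = 0.00443). Lrp1, a scavenger receptor for apolipoprotein E, stood at 66.4 and 61.0 CPM against 114, 123 and 127 CPM (0.91, edgeR adjusted p = 0.00193). These are macrophage and not T cell genes. The groups did not overlap in them, which the choice of the largest changes required. Of 18 lipid-associated macrophage genes, 5 rose in the lymphoid gate (Lpl, Cd36, Plin2, Cd9 and Apoe), against 0.831% of all genes tested. Of the 18, 17 did not overlap between groups, against 29.8% of all genes tested. Cd74 fell by 0.67 and H2-DMb1 by 0.60 (edgeR adjusted p = 0.00349 and 0.0154).

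Cells with RNA of both classes were therefore counted. A total of at least 20 UMIs of Lyz2, C1qa, C1qb and C1qc was found in 39.4% and 39.7% of gated cells in parental mice and in 50%, 41.4% and 59.9% in E0771-Res2 mice. These cells held medians of 13745 and 13892 UMIs against 13298, 9786 and 10784.5, above the 7671 and 8002 against 7001, 5026.5 and 6135 of the other gated cells. Doublets of a T cell and a macrophage and free RNA were not told apart. Without these cells, a step added after seeing the data, 109 and 41 against 87, 116 and 71 cells were left. edgeR then called 48 of 6867 genes (0.699%), 43 higher and 5 lower, and 21 of these were among the 103. The cells left still held medians of 5 and 5 against 6, 5.5 and 6 UMIs of Lyz2, C1qa, C1qb and C1qc together. Outside the gate, 75.9% and 72.4% against 69.0%, 64.1% and 58.7% of cells reached 20 such UMIs. Myeloid RNA was therefore lowered and not removed, and the part of what was left in the smaller sum was not tested.

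The genes given from this smaller sum were chosen after their values were seen. Lpl (0.30, edgeR adjusted p = 0.926), F7 (2.03, edgeR adjusted p = 0.123), Lrp1 (0.83, edgeR adjusted p = 0.399) and Cd74 (0.09, edgeR adjusted p = 0.986) no longer passed. Cd8b1 (6:71322788-71337494, plus strand) stood at 213 and 232 CPM against 61.0, 119 and 89.7 CPM and fell by 1.28 ± 0.21 (edgeR adjusted p = 0.00149). Cd8a (6:71373427-71379173, plus strand) stood at 345 and 301 CPM against 94.6, 146 and 195 CPM and fell by 1.18 ± 0.22 (edgeR adjusted p = 0.0176). The highest E0771-Res2 mouse stayed below both parental mice for each chain. In the whole gate they stood at 168 and 148 CPM against 39.1, 79.2 and 51.3 CPM for Cd8b1 (-1.5 ± 0.26, edgeR adjusted p = 0.0532) and at 251 and 178 CPM against 50.2, 92.3 and 103 CPM for Cd8a (-1.43 ± 0.35, edgeR adjusted p = 0.268), where neither passed.

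Nr4a2, which is induced by T cell receptor signals, fell with and without the cells that held myeloid RNA. It stood at 293 and 275 CPM against 132, 131 and 149.9 CPM in the whole gate (-1.05 ± 0.11, edgeR adjusted p = 2.24e-05) and at 403 and 397 CPM against 198, 184 and 215 CPM in the smaller sum (-1.01 ± 0.15, edgeR adjusted p = 0.000192). The groups were clear of each other in both. The related Nr4a3 differed by -0.84 and did not pass (edgeR adjusted p = 0.0901). Of 17 checkpoint and exhaustion genes in the whole gate 3 fell (0.281% of all genes tested), the others being Cd160 and Tox. Cd160, a receptor of CD8 and NK cells, stood at 77.0 and 84.4 CPM against 41.2, 51.9 and 49.5 CPM (-0.75, edgeR adjusted p = 0.0228). Tox, a factor of exhausted T cells, stood at 113 and 97.4 CPM against 57.1, 67.2 and 78.2 CPM (-0.67, edgeR adjusted p = 0.0291). Neither passed in the smaller sum (edgeR adjusted p = 0.693 and 0.183).

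Cytotoxic genes went both ways in the whole gate, with 1 higher and 1 lower of 19 (0.831% and 0.281% of all genes tested). Gzmb, the granule protease granzyme B, stood at 568 and 645 CPM against 855, 862 and 734 CPM (edgeR adjusted p = 0.0415). In the smaller sum it stood at 869 and 1209 CPM against 1890.2, 1623 and 1711 CPM and rose by 0.76 (edgeR adjusted p = 0.00256). Gzmb was thus higher in every E0771-Res2 mouse in both sums. Nkg7, a granule membrane protein, stood at 1191 and 1218 CPM against 737, 904 and 807 CPM (-0.56, edgeR adjusted p = 0.00443), and in the smaller sum it did not pass (-0.36, edgeR adjusted p = 0.312). Runx3, which supports the CD8 program, stood at 219.5 and 229 CPM against 141, 156 and 155 CPM in the whole gate (-0.57, edgeR adjusted p = 0.0112). Irf1, an interferon-induced factor, stood at 129 and 143 CPM against 80.3, 96.3 and 79.3 CPM (-0.66, edgeR adjusted p = 0.0154). In the smaller sum neither passed and the groups overlapped in both, with Runx3 at 225 and 237 CPM against 174, 194 and 242 CPM (-0.19, edgeR adjusted p = 0.921) and Irf1 at 125 and 99.4 CPM against 88.5, 114 and 107 CPM (-0.15, edgeR adjusted p = 0.957).

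Ccr7, the lymph node homing receptor of naive T cells and mature dendritic cells, stood at 88.2 and 88.3 CPM against 50.7, 54.7 and 47.1 CPM in the whole gate (-0.79, edgeR adjusted p = 0.00961). It stood at 95.6 and 135 CPM against 102, 95.2 and 101 CPM in the smaller sum, where it did not pass (-0.16, edgeR adjusted p = 0.957). The dendritic cell chemokine gene Ccl22 was also lower in the whole gate, at 17.0 and 11.7 CPM against 4.75, 2.85 and 1.79 CPM (edgeR adjusted p = 0.0124). Mature dendritic cell markers in the whole gate summed to 266 and 249 CPM against 199, 159 and 189 CPM. These markers include Ccr7 and Ccl22, so the sum is not separate from the values of those genes. The part of mature dendritic cells in the Ccr7 result was not tested.

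Of 19 immediate early and chaperone genes tested in the lymphoid cells without myeloid RNA, 5 rose and 0 fell. Among all 6867 genes tested in this sum, 43 rose and 5 fell. The 5 list members that rose were the immediate early genes Jun, Fos, Dusp1 and Ier3 and the chaperone gene Hspa1a. Jun stood at 488 and 384 CPM against 902, 939.7 and 921 CPM (1.06, edgeR adjusted p = 3.65e-05), and Fos, its partner in AP-1, at 335 and 351 CPM against 644, 696 and 704 CPM (edgeR adjusted p = 0.000155). Both were at like levels within each group. Dusp1, a phosphatase of MAP kinases, stood at 380.4 and 362 CPM against 722, 625 and 782 CPM (0.93, edgeR adjusted p = 0.000398). Of 27 interferon-stimulated genes 3 rose in this sum, where 15 had fallen in the remaining cells: Isg15 stood at 745 and 649 CPM against 1101, 1116 and 1211 CPM (0.71, edgeR adjusted p = 0.00256), Cxcl10 at 272 and 257 CPM against 606, 424 and 435 CPM (0.88, edgeR adjusted p = 0.00359), and Bst2 rose by 0.58 (edgeR adjusted p = 0.0358). In the test of the difference from the remaining cells given below, Isg15 passed (1.05 ± 0.15, edgeR adjusted p = 0.000719), and Cxcl10 (1.29, edgeR adjusted p = 0.0646) and Bst2 (0.37, edgeR adjusted p = 0.503) did not. Ccl2, a monocyte-attracting chemokine gene, stood at 60 and 74.5 CPM against 235, 202 and 174 CPM (1.65 ± 0.21, edgeR adjusted p = 1.87e-05). The macrophage gene Gpnmb was also seen in more of these lymphoid cells in every E0771-Res2 mouse, as given above. How far myeloid RNA left in this sum entered the rises was not tested.

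**Figure D4:**
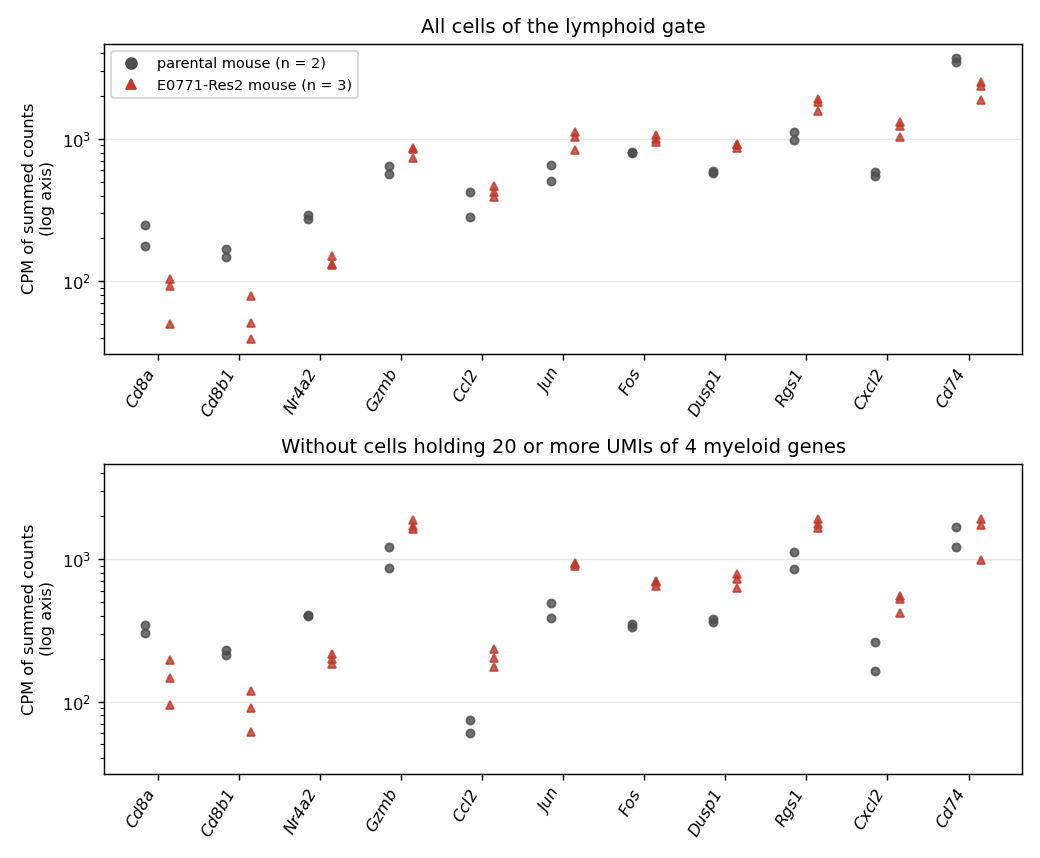
Levels (CPM, log axis) of 11 genes per mouse over all cells of the lymphoid gate (top) and without cells holding 20 or more UMIs of Lyz2, C1qa, C1qb and C1qc (bottom), for 2 parental (circles) and 3 E0771-Res2 mice (triangles). Nr4a2 stands apart in both panels, at 275 to 293 against 131 to 149.9 CPM at the top, while Cd74 is lower in E0771-Res2 mice at the top and overlaps at the bottom.

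In the whole gate 0 of 15 regulatory T cell, 0 of 22 NK cell and 1 of 14 naive or memory genes were called. Since 1.11% of all genes tested were called there, such counts do not set these lists apart. Foxp3 differed by 0.47 (edgeR adjusted p = 0.401) and Il2rb, a shared interleukin receptor chain, by -0.41 (edgeR adjusted p = 0.0621). Without the cells that held myeloid RNA 2 of 21 NK genes rose, against 43 of all 6867 genes tested there. These were Klra4 at 28.5 and 33.1 CPM against 90.0, 69.8 and 52.7 CPM (1.25, edgeR adjusted p = 0.0392) and Fcer1g, which is shared with macrophages (0.71, edgeR adjusted p = 0.00359).

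Whether the effect of the line differed between lymphoid and remaining cells was tested directly, with both sums of a mouse paired. edgeR called 95 of 10587 genes (0.897%), 67 with the effect higher in lymphoid cells (0.633%) and 28 with it lower (0.264%). Il1r2 stood at 92.5 and 75.3 CPM against 58.6, 58.7 and 82.3 CPM in the lymphoid gate, where the groups overlapped, and had the lowest p of the difference (1.48 ± 0.17 on the log2 scale, edgeR adjusted p = 1.77e-06). Il1b stood at 759 and 745 CPM against 732, 615 and 609 CPM in the gate (difference between gates 0.75 ± 0.10, edgeR adjusted p = 1.92e-05). Ly6a (Sca-1, an interferon-induced surface protein) stood at 1206 and 1337 CPM against 693, 600.1 and 731 CPM outside and differed by -0.12 inside (difference 0.75 ± 0.11, edgeR adjusted p = 9.40e-05). These 3 genes fell outside the gate and did not pass within it.

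Cxcl2, a chemokine gene for neutrophils, behaved the other way. It stood at 549 and 588 CPM against 1033, 1230 and 1323 CPM in the gate (1.07 ± 0.11, edgeR adjusted p = 2.24e-05) and at 1755 and 1548 CPM against 1597, 2223 and 2129 CPM outside it, where the groups overlapped (0.26, edgeR adjusted p = 0.358). The difference was 0.79 ± 0.10 (edgeR adjusted p = 1.92e-05). Cish, a feedback inhibitor of cytokine signals, stood at 33.1 and 34.3 CPM against 15.2, 12.6 and 13.8 CPM outside the gate (-1.27, edgeR adjusted p = 3.63e-06) and differed by 0.07 inside (difference 1.30 ± 0.21, edgeR adjusted p = 0.000471). Cfb (complement factor B) differed by 0.72 inside and by -0.28 outside (difference 0.95 ± 0.14, edgeR adjusted p = 0.000209). Hist1h1e, a histone gene, differed by -0.15 inside and by 1.13 outside, neither past the threshold alone (difference -1.30 ± 0.15, edgeR adjusted p = 1.77e-06). For Cd8a the difference was -1.98 ± 0.29 (edgeR adjusted p = 9.40e-05), with 3.1 to 5.59 CPM outside the gate.

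The same test was run without the gated cells that held myeloid RNA, which were a larger share of the gate in every E0771-Res2 mouse than in either parental mouse. This step was added after seeing the data. edgeR then called 29 of 10523 genes (0.276%), and 16 of these were among the 95. Of the 8 genes above, 7 passed, with differences of 1.66 ± 0.27 for Il1r2, 1.07 ± 0.17 for Ly6a, 0.95 ± 0.17 for Cxcl2, 1.33 ± 0.26 for Cish, 1.54 ± 0.30 for Cfb, -1.27 ± 0.20 for Hist1h1e and -1.69 ± 0.33 for Cd8a (edgeR adjusted p = 0.00111 to 0.0163). Il1b did not pass (1.28 ± 0.30, edgeR adjusted p = 0.196). It stood at 331 and 171 CPM against 384, 234 and 335 CPM in those lymphoid cells, where the groups overlapped. Cxcl2 stood at 261 and 163 CPM against 421, 521 and 548 CPM there and rose by 1.17 (edgeR adjusted p = 0.000846).

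**Figure D5:**
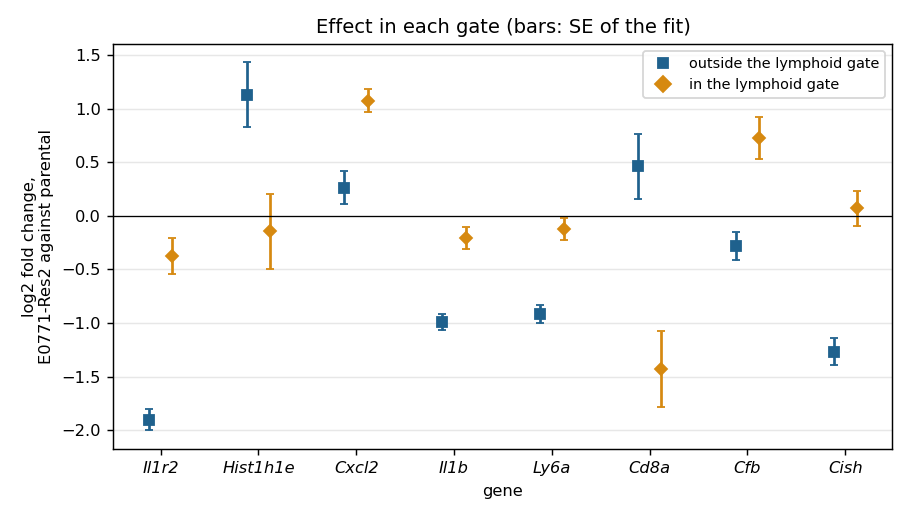
Log2 fold change (E0771-Res2 against parental) of the 8 genes with the lowest p for a difference between gates, outside (squares) and in the lymphoid gate (diamonds), with bars for the standard error of each fit. Il1r2 fell by 1.90 outside the gate against a difference of -0.38 inside, and Cxcl2 rose by 1.07 inside.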

How the data were processed

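CD45+ cells of each tumor carried a multiplexing tag, were pooled and were sequenced as Chromium 3′ v3.1 libraries on a NovaSeq 6000. The authors' processing notes name Cell Ranger 6.1.2, Seurat and mm10. The deposited matrices hold raw UMI counts of 32285 genes and 9 tags per cell, split by tag. The other parental mouse of the study is not analysed here. Tag counts were not used.

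Cells were kept at 500 to 6000 genes and under 10% mitochondrial UMIs. Counts were summed per mouse and gate, and samples were grouped by their titles. Mouse was the unit, and no test used cells as replicates. No doublet caller was run. edgeR 4.0.16 (R 4.3.3, with TMM, filterByExpr and robust quasi-likelihood) gave all adjusted p-values of genes, at a threshold of 0.05. A prior count of 2 was used only for the log levels behind the correlation of replicate deviations. Library sums of 775080 UMIs (lymphoid gate, parental 3) to 14105279 UMIs set the precision, and p-values measure the spread between mice of 1 line per group. The code was tested on simulated counts. Shares were compared by exact permutation over 10 splits with exact binomial intervals (scipy 1.17.1). DESeq2 1.42.0 and other settings were alternatives.

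Named genes were, per sum, the 12 largest changes in each direction among called genes that had no overlap between groups and a mean log2 CPM of 5 or more, up to 4 members per list by p, and 8 genes by p for the difference between gates. Members, gates and lists were chosen with earlier results of these data known. Gene positions are from the mm10 annotation and promoters from RefSeq (GRCm38.p6). A few members of the lists are counted but not reported here by name.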

Additional observations from a re-analysis of the deposited data

Results flagged for a closer look

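The effect of the line differed between lymphoid and remaining cells for 95 genes, by edgeR's test of the difference itself. The 8 abundant genes with the lowest p are given as lymphoid minus remaining effect on the log2 scale, each with both sums of the 3 E0771-Res2 and 2 parental mice behind it. The difference was 1.48 for Il1r2, 1.30 for Cish, 0.95 for Cfb, 0.79 for Cxcl2, 0.75 for Il1b and 0.75 for Ly6a. It was -1.98 for Cd8a and -1.30 for Hist1h1e. Cells of the gate with myeloid RNA were 39.4% and 39.7% of it in the parental and 50%, 41.4% and 59.9% in the E0771-Res2 mice. Without them, a step added after seeing the data, 29 genes differed, and 7 of the 8 still passed, Il1b being the exception (1.28, edgeR adjusted p = 0.196). Groups of 2 and 3 mice were too small to test whether a single mouse stood apart.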

How the results depend on the processing

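Counts of called genes moved more than the direction of named genes. Without a filter on low counts they were 1608 for all kept cells and 305 for the lymphoid gate. A fit over all 8 mice called 546 (all kept cells) and 672 (remaining cells). DESeq2 called 768, 72 and 915 in all, lymphoid and remaining cells, and thinning to 2500 UMIs called 889 in the remaining cells. Gates at 1 and 3 UMIs called 313 and 45 lymphoid genes, and the gate at 1 UMI called 232 for the difference. Leaving out 1 mouse gave 246 to 1608 (all kept cells), 3 to 293 (lymphoid gate), 455 to 1547 (remaining cells) and 44 to 209 (difference between gates, 51 without parental 1, 46 without parental 3, 44 without E0771-Res2 1 and 209 without E0771-Res2 2, against 95). The cause was not tested. With a replicate block edgeR called 1693, 324 and 1482. Deviations of mice with the same replicate number correlated at -0.036 and 0.0016. With 2 parental mice their deviations mirror each other, so these values cannot show whether replicate numbers pair the mice. Ctsk, Gpnmb, Lpl and Trem2 were no longer called over all kept cells without either parental mouse. Of the 24 genes named first in the remaining cells, Gdf15, Tnfrsf12a and Id3 were not called over 8 mice. Without parental 1, 22 of the 24 lymphoid genes lost their call, and without parental 3, 21 did. Removing cells with myeloid RNA, chosen after seeing the data, left 48 calls in the lymphoid gate and 29 for the difference between gates. Of 23 named lymphoid genes still tested, 3 passed, 19 lost their call and 1 reversed. The removal turned the log2 fold change of Cd74 to 0.0938, the CD4 share of kept cells to -0.143 and the NK share of lymphoid cells to 0.225 percentage points. Thinning turned the latter to 0.283 and the Foxp3 share of kept cells to 0.185, and the gate at 1 UMI turned the Foxp3 share of lymphoid cells to -0.224. With 1 mouse left out the difference in percent of kept cells, Foxp3 gate, ran from -1.17 to 0.489 and that in percent of lymphoid cells, NK gate, from -2.95 to 1.04. The CD8 share of lymphoid cells stayed lower in E0771-Res2 under every setting run, with differences of -24.2 to -10.7 percentage points.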

Other observations

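Some further genes, most of them at low levels, were called over all kept cells. Cd79a and Ebf1, genes of B cells, stood at 1.6 and 0.203 CPM and at 1.10 and 0.203 CPM in the parental mice, against 3.47, 2.74 and 4.44 CPM and 2.41, 2.25 and 3.31 CPM in the E0771-Res2 mice (edgeR adjusted p = 0.0405 and 0.0310), and 10 B and plasma cell markers summed to 91.7 and 77.7 CPM against 96.5, 96.2 and 96.2 CPM, higher in every E0771-Res2 mouse. Of 7 such markers tested 2 were called higher, 6 did not overlap (42.2% of all genes tested) and the median log2 fold change was 0.83. In the lymphoid gate they summed to 100.6 and 100.6 CPM against 208, 162 and 117 CPM. Krt8, a keratin of tumor epithelium, stood at 3.30 and 5.07 CPM against 6.38, 6.95 and 7.43 CPM (edgeR adjusted p = 0.0413). Thbs1, a matrix glycoprotein made by monocytes and platelets and not at a low level, stood at 395 and 353 CPM against 147, 217 and 164 CPM. It fell by 1.09 (edgeR adjusted p = 0.0143) and was not among the matrix genes that fell in the remaining cells. Fasl, a death ligand of cytotoxic cells, stood at 7.40 and 7.51 CPM against 3.97, 5.58 and 3.23 CPM (edgeR adjusted p = 0.0419).

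Within the lymphoid gate, Tnfsf13 (the B cell factor APRIL) stood at 36.3 and 36.4 CPM against 95.1, 62.7 and 77.6 CPM (edgeR adjusted p = 0.00476), and Hpgds, a prostaglandin D synthase, at 28.6 and 35.1 CPM against 65.5, 49.0 and 72.8 CPM (edgeR adjusted p = 0.0154). Ebi3, a cytokine subunit, stood at 36.3 and 32.5 CPM against 72.4, 55.8 and 75.2 CPM (edgeR adjusted p = 0.0136). Jaml, a junctional adhesion molecule of leukocytes, stood at 109.5 and 118 CPM against 56.0, 79.2 and 53.7 CPM and fell by 0.84 (edgeR adjusted p = 0.0110). None of these 4 passed without the cells that held myeloid RNA, where the log2 fold changes were 0.69, 0.78, 1.33 and -0.54 (edgeR adjusted p = 0.749, 0.750, 0.0591 and 0.373).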
